A study of Mus musculus with 12 samples.

Results

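Genes of amino acid entry and of glutamate use were examined in T helper 1 (Th1) cells in which complex II of the respiratory chain was targeted. The set holds 9 genes, chosen by symbol from the 18929 gene symbols of the expression table: the transporter genes Slc7a5, Slc3a2, Slc7a1, Slc7a6, Slc1a5, Slc38a1, Slc38a2 and Slc1a4, and Glud1. Glud1 encodes glutamate dehydrogenase. All 9 passed the filter on low values that left 12699 genes to test.

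The tested libraries were 3 labelled Sdhc cKO, a conditional knockout of the gene for the C subunit of succinate dehydrogenase, and they were set against 3 wild-type control libraries. All 6 came from T cells of C57BL/6 mice kept for 5 days under Th1-polarising conditions and then sorted. The sources used here do not give the Cre driver, the deleted exons, the sort gate, the sex and age of the mice, or whether each library was a separate animal. The p-values set the group difference against the spread of these 6 libraries only, and part of that spread may be technical. The series has 12 samples, and the 6 samples of the Slc25a1 KO, Slc25a11 KO and empty vector groups were not analysed here.

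T cells that divide import large amounts of amino acids. The product of Slc7a5, LAT1, exchanges intracellular glutamine for leucine and other large neutral amino acids, and it reaches the cell surface only when bound to the heavy chain 4F2hc, the product of Slc3a2. In mouse T cells, loss of Slc7a5 blocks clonal expansion and effector differentiation, and Slc1a5 has been tied to Th1 and Th17 induction. Imported leucine, arginine and glutamine signal to mTORC1, while glutamate dehydrogenase feeds glutamate carbon into alpha-ketoglutarate and the TCA cycle, upstream of succinate. Transcription of many of these genes is raised by MYC after activation and by ATF4 when amino acids are short.

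Values are read counts per gene scaled by each library's size factor, termed normalised counts. Counted reads numbered 18144933 to 21983821 in the cKO libraries and 18272998 to 20815668 in the controls. The targeted gene, Sdhc, had 1452, 1562 and 1655 normalised counts in cKO 1, 2 and 3, against 1683, 1602 and 1892 in control 1, 2 and 3. The groups overlapped, and the difference did not pass the test (log2 fold change -0.15, SE 0.09, adjusted p = 0.978 in limma). The counts are over the whole gene and not by exon, and the extent of the deletion was not tested. T cell markers were abundant: the 8 CD4 T cell genes summed to 58205 to 67558 normalised counts in cKO libraries and 58362 to 61490 in controls. Cd4 had at least 10681 normalised counts in cKO libraries and at least 10113 in controls. The NK cell list of 5 genes, mostly Eomes and Klrk1, summed to 334 to 407 in cKO libraries and 465 to 516 in controls, without overlap. Each of its genes alone overlapped between the groups, and its defining marker Ncr1 had at most 8.61 and 22.0. The part of this list in the results below was not tested. The sum of 5 Th1 genes, mostly Il12rb2 and Stat4, overlapped, at 9470.3 to 10947 in cKO libraries and 10612 to 11073 in controls. Of its genes 2 did not overlap, nor did 10.2% of all tested genes. Ifng, the cytokine that defines Th1 cells, had 858, 880.3 and 865 normalised counts in cKO 1, 2 and 3, against 1342, 1461 and 1342 in control 1, 2 and 3 (log2 fold change -0.67, SE 0.07, adjusted p = 0.265 in limma). Tbx21, the Th1 master regulator gene, had 1371, 1501 and 1489 in cKO 1, 2 and 3, against 1659.7, 1961 and 1759.9 in control 1, 2 and 3 (-0.30, SE 0.09, adjusted p = 0.978 in limma). The part of these genes in the results for the transporters was not tested. Sums of the CD8, B cell, myeloid, dendritic and erythroid lists overlapped between the groups: CD8 T cell genes summed to at most 547 in cKO libraries and 368 in controls, myeloid genes to at most 82.4 and 66.7, and the B cell genes, nearly all Ighm, to at most 2070 and 1978. In sequenced bulk RNA, fewer cells of a type and less RNA per cell cannot be told apart.

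Per length, the genes spanned a wide range of levels, and the heterodimer genes stood near the top. Normalised counts per kilobase of merged exons (GENCODE M21, GRCm38) had a lowest, median and highest value over the 6 libraries of 1266, 2172 and 2418 for Slc7a5. They were 1424, 1452 and 1657 for Glud1 and 965, 1456 and 1607 for Slc3a2. These 3 genes overlapped in level, with Slc7a5 above Glud1 in 5 of 6 libraries and Glud1 above Slc3a2 in 2 of 6. Slc3a2 was above Slc1a5 in all 6 libraries without overlap. Slc1a5 (359 to 499 per kilobase), Slc38a2 (256 to 503), Slc7a1 (198 to 406) and Slc38a1 (273 to 310) came next, the first 3 of these each overlapping the gene after it in level. Slc38a1 was above Slc7a6 (124 to 186 per kilobase) without overlap, and Slc1a4 (70.3 to 141) was lowest in all 6 libraries. Merged exons count sequence that a T cell may not use, so long genes such as Slc38a1, with 17236 bases of merged exons, may be understated.

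Slc7a5, the LAT1 gene (chromosome 8, 121881150 to 121907694, minus strand), was somewhat lower on average in cKO libraries, by less than the spread between libraries. It had 4693, 8439.9 and 7666 normalised counts in cKO 1, 2 and 3, against 6294, 8560.4 and 8966 in control 1, 2 and 3. The lowest library of each group was number 1, and cKO 2 and cKO 3 lay within the range of the controls. The means were 6933 ± 1978 in cKO libraries and 7940.1 ± 1440 in controls (SD, n = 3 each). The log2 fold change was -0.22 (SE 0.23, 95% interval -0.75 to 0.31, adjusted p = 0.978 in limma). That interval runs from 0.593 to 1.24 times the control level. A 2-sided exact permutation test gave p = 0.5, where 0.1 is the smallest that 3 against 3 allows. The annotated gene Gm20388 overlaps Slc7a5 on the opposite strand. As the strand setting of the counting is not given, reads of the 2 cannot be told apart.

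Slc3a2, the gene of the heavy chain 4F2hc (chromosome 19, 8706882 to 8723369, minus strand), had nearly equal means in the groups. Its normalised counts were 3405, 5671 and 5063 in cKO 1, 2 and 3, against 3466, 5212 and 5426 in control 1, 2 and 3. Number 1 was again the lowest library of each group. The means of 4713 ± 1173 in cKO libraries and 4701 ± 1075 in controls (SD, n = 3 each) put the log2 fold change at -0.0014 (SE 0.23, 95% interval -0.53 to 0.52, adjusted p = 0.9997 in limma).

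The balance of the 2 subunit transcripts did not overlap between the groups, while both levels did. The ratio of Slc7a5 to Slc3a2 normalised counts was 1.38, 1.49 and 1.51 in cKO 1, 2 and 3, against 1.82, 1.64 and 1.65 in control 1, 2 and 3. All 3 cKO ratios were below all 3 control ratios, with means of 1.46 ± 0.0721 in cKO libraries and 1.70 ± 0.0976 in controls (SD, n = 3 each). Among single genes, 10.2% of all tested had no overlap between the groups, but no such share was computed over ratios. As reads of Gm20388 cannot be told apart from those of Slc7a5, the ratio may include them. The ratio was computed without a test, and neither gene passed alone (limma adjusted p = 0.978 for Slc7a5 and 0.9997 for Slc3a2). It describes the balance of the 2 transcripts in these libraries, not which of them, if either, moved. Being a ratio within a library, it does not depend on the scaling between libraries.

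**Figure D1:**
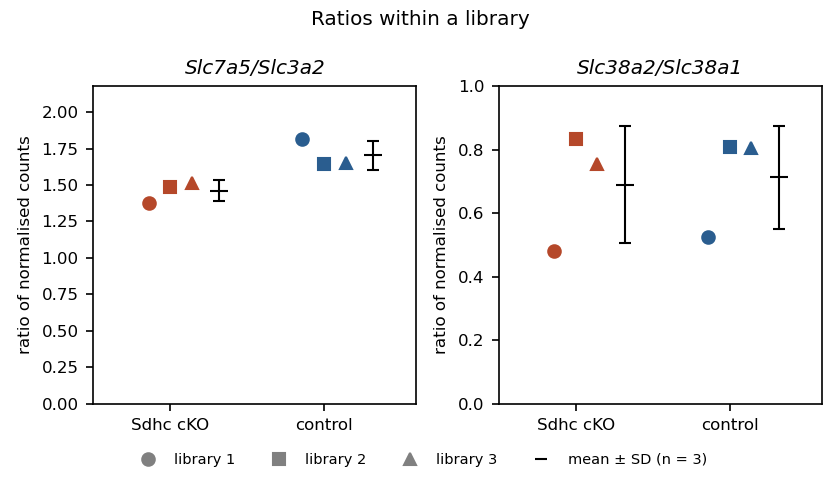
Ratio of normalised counts within each library for Slc7a5 over Slc3a2 (left) and Slc38a2 over Slc38a1 (right), Sdhc cKO and control, with points for the 3 libraries of each group and bars for the mean ± SD. The Slc7a5 to Slc3a2 ratio is 1.38 to 1.51 in cKO libraries and 1.64 to 1.82 in controls, while the Slc38a2 to Slc38a1 ratio overlaps and is lowest in library 1 of each group.

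Both other SLC7 genes of the set had lower means in cKO libraries and overlapping groups. Slc7a1 encodes CAT1, the main carrier of arginine and lysine (chromosome 5, 148327410 to 148399904, minus strand). It had 2278, 4680.0 and 3879 normalised counts in cKO 1, 2 and 3, against 3096, 4576 and 4156 in control 1, 2 and 3. The spread was wide, from a lowest value in cKO 1 to a highest in cKO 2 that is 2.05 times as large, and the log2 fold change of -0.17 (SE 0.26, 95% interval -0.78 to 0.44) did not pass (adjusted p = 0.981 in limma). Slc7a6 encodes y+LAT2, a further light chain that pairs with 4F2hc and exchanges arginine for glutamine (chromosome 8, 106168857 to 106198706, plus strand). It had 565, 739 and 719 normalised counts in cKO 1, 2 and 3, against 593, 804 and 848 in control 1, 2 and 3. Both cKO 2 and cKO 3 were below control 2 and control 3, but control 1 was lower than either, and the log2 fold change was -0.14 (SE 0.16, adjusted p = 0.978 in limma).

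Among the carriers of glutamine and small neutral amino acids, Slc1a5 differed by a like amount in each numbered pair of libraries. The labels do not say that the numbers pair libraries, and 21.8% of all tested genes were lower in cKO in every such pair. Slc1a5 encodes ASCT2, an exchanger of glutamine, serine and other neutral amino acids (chromosome 7, 16781340 to 16798274, plus strand). Its normalised counts were 1498, 1816 and 1877 in cKO 1, 2 and 3, against 1622, 2042 and 2084 in control 1, 2 and 3. The cKO library was below the control of the same number each time, by log2 differences of -0.11, -0.17 and -0.15, yet the groups overlapped through control 1. The overall log2 fold change was -0.14 (SE 0.13, 95% interval -0.44 to 0.15, adjusted p = 0.978 in limma). Slc1a4, the gene of ASCT1, which exchanges serine, alanine and threonine (chromosome 11, 20302180 to 20332713, minus strand), was the least abundant of the set. It had 276, 518 and 442 normalised counts in cKO 1, 2 and 3, against 347, 498 and 553 in control 1, 2 and 3. Here too the groups overlapped, with cKO 2 above control 2 (log2 fold change -0.20, SE 0.26, adjusted p = 0.978 in limma).

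The sodium-coupled carriers SNAT1 and SNAT2, encoded by the neighbouring genes Slc38a1 (chromosome 15, 96571418 to 96642913, minus strand) and Slc38a2 (chromosome 15, 96687392 to 96699730, minus strand), behaved unlike each other across libraries. Slc38a1 was the steadiest transporter gene of the set, with 4704, 5334 and 5015 normalised counts in cKO 1, 2 and 3, against 4992, 5335 and 5228 in control 1, 2 and 3. Its highest library was 1.13 times its lowest, and its log2 fold change was -0.05 (SE 0.07, 95% interval -0.22 to 0.12, adjusted p = 0.981 in limma). For Slc38a2, known to be induced when amino acids are short, the counts were 2262, 4448 and 3788 in cKO 1, 2 and 3, against 2628, 4313 and 4205 in control 1, 2 and 3. Its highest library was 1.97 times its lowest, with library 1 of each group far below the others, and the log2 fold change was -0.11 (SE 0.28, adjusted p = 0.988 in limma). The ratio of Slc38a2 to Slc38a1 was accordingly 0.481, 0.834 and 0.755 in cKO 1, 2 and 3, and 0.526, 0.808 and 0.804 in control 1, 2 and 3. It overlapped between the groups, with means of 0.690 ± 0.185 in cKO libraries and 0.713 ± 0.162 in controls (SD, n = 3 each).

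Glud1, whose product turns glutamate into alpha-ketoglutarate in mitochondria (chromosome 14, 34310727 to 34345265, plus strand), was almost equal in the groups. Its normalised counts were 6977, 6017 and 5995 in cKO 1, 2 and 3, against 6656, 6150.3 and 6075 in control 1, 2 and 3. The log2 fold change was 0.0057 (SE 0.09, 95% interval -0.19 to 0.20, adjusted p = 0.999 in limma), so the interval covers 0.874 to 1.15 times the control level. Unlike the 8 transporter genes, Glud1 was highest, not lowest, in library 1 of both groups.

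**Figure D2:**
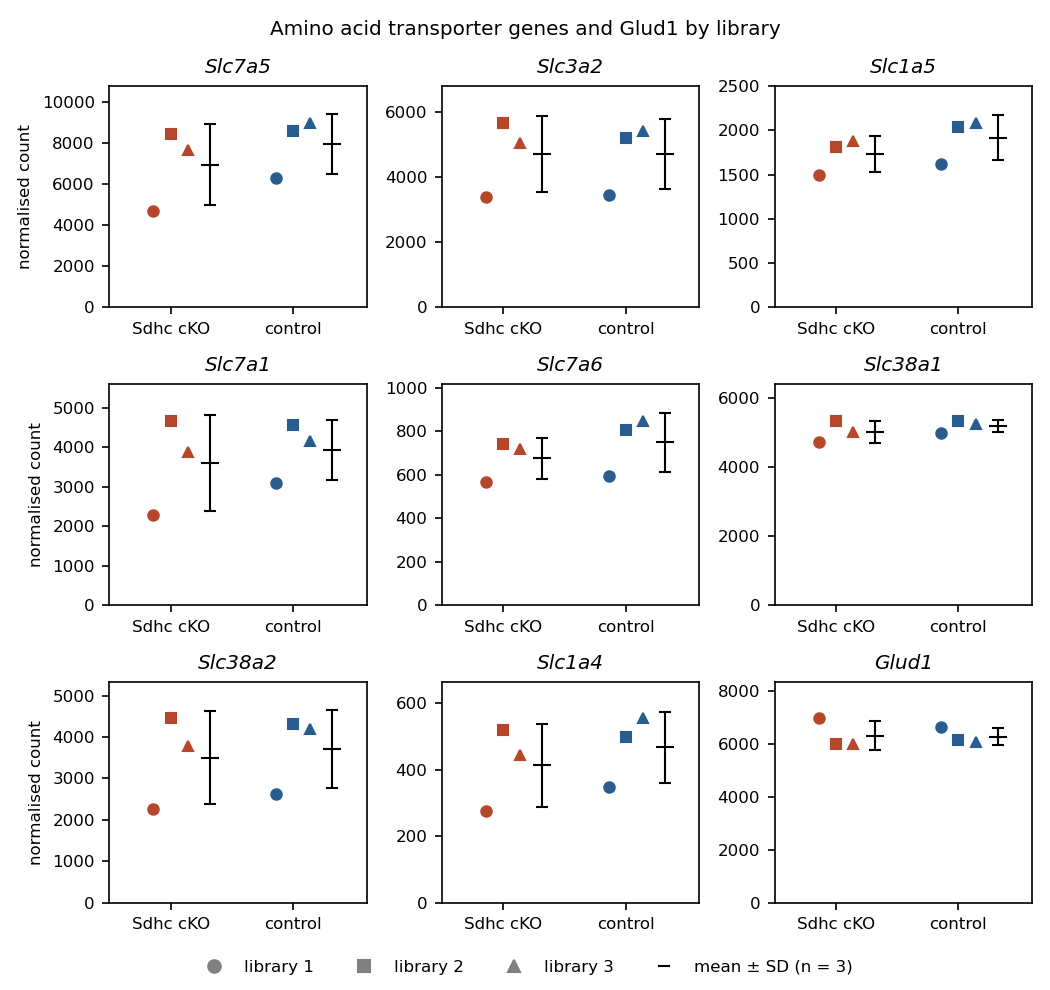
Normalised counts of the 9 genes in each library, Sdhc cKO and control, 1 panel per gene with its own axis from 0; circles, squares and triangles are libraries 1, 2 and 3 and the bars are mean ± SD of 3 libraries. The groups overlap at every gene, and library 1 of both groups is the lowest for the 8 transporter genes and the highest for Glud1.

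Across the 9 genes, 0 passed the test of cKO against control over all genes (limma, adjusted p threshold 0.05), where the share of all 12699 tested genes that passed was 0%. At an unadjusted p under 0.05 there were 0 of the 9, against 445 of all genes (3.5%), and edgeR's quasi-likelihood test on the recovered reads also passed 0 of the 9 and 0 of all genes, with 0 of the 9 at an unadjusted p under 0.05. DESeq2 passed 0 of the 9 and 0.0157% of all genes, and limma with a block for the replicate number passed 0 of the 9 and 0.00787%. At an unadjusted p under 0.05 the block fit had 2 of the 9, Slc7a5 and Slc1a5, against 12.6% of all genes. The groups overlapped at all 9 genes, while 10.2% of tested genes had no overlap (5.64% with all cKO libraries below all controls and 4.51% with all above). The log2 fold change was negative for 8 of 9, against 54.1% of all genes, and had a median of -0.14 over the 9, against -0.01 over all genes tested. DESeq2 and edgeR on the recovered reads gave Slc3a2 a log2 fold change just above 0, as did each other scaling tried. In the 3 pairs of libraries with the same number, Slc7a5, Slc1a5, Slc7a6 and Slc38a1 were lower in cKO in every pair, which was also so for 21.8% of all tested genes. For Slc38a1 the difference in pair 2 was only -0.00012 on the log2 scale. Leaving out cKO 1 alone, which keeps the low control 1, put the median over the 9 at 0.04. Slc7a5 then stood at 0.04, Slc3a2 at 0.22, Slc7a1 at 0.13, Slc38a2 at 0.18 and Slc1a4 at 0.07. Without control 1 alone the median was -0.30. Without library 1 of both groups the median was -0.05. Slc7a5 was then at -0.12, Slc7a1 at -0.03, Slc38a2 at -0.05, Slc1a4 at -0.13 and Slc3a2 at 0.01.

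The libraries differed in sex-linked transcripts, and the call for a pair of genes depended on whether this was modelled. The summed share of Eif2s3y, Uty, Kdm5d and Ddx3y, all Y-linked, was 0.207, 193 and 189 RPM in cKO 1, 2 and 3, against 0.0480, 131 and 55.1 in control 1, 2 and 3. Library 1 of each group had almost none. Xist, transcribed from the inactive X, had 7565, 0 and 2.15 normalised counts in cKO 1, 2 and 3, against 9779.6, 2490.5 and 6406 in control 1, 2 and 3. Xist and Y-linked transcripts were therefore present together in control 2 and control 3. With this share as a covariate beside genotype, Slc7a5 and Slc7a1 passed as lower in cKO. The log2 fold change was then -0.47 for Slc7a5 (SE 0.10, adjusted p = 0.0247 in limma) and -0.47 for Slc7a1 (SE 0.09, adjusted p = 0.0180 in limma). The same 2 of 9 passed with edgeR and the covariate (adjusted p = 0.0339 and 0.0242). In these fits 6.5% of all genes were called with limma, 4.86% as lower, and 5.28% with edgeR, 3.35% as lower. Slc38a2 (adjusted p = 0.0528 in limma), Slc1a4 (0.0722) and Slc1a5 (0.0758) came near the threshold without passing, and Glud1 stood at 0.07 (SE 0.06, adjusted p = 0.458 in limma). The covariate is also higher in cKO 2 and cKO 3 than in any control, so in this design it is partly tied to genotype. It was near 0 only in library 1 of each group, so it does not separate sex from other traits of those libraries. Without library 1 of both groups, which leaves 2 against 2, the log2 fold change was -0.12 for Slc7a5 (SE 0.07, adjusted p = 0.722 in limma) and -0.03 for Slc7a1 (SE 0.09, adjusted p = 0.953 in limma). Between the 2 number 1 libraries alone, it was -0.42 for Slc7a5 and -0.44 for Slc7a1, with no replicate.

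**Figure D3:**
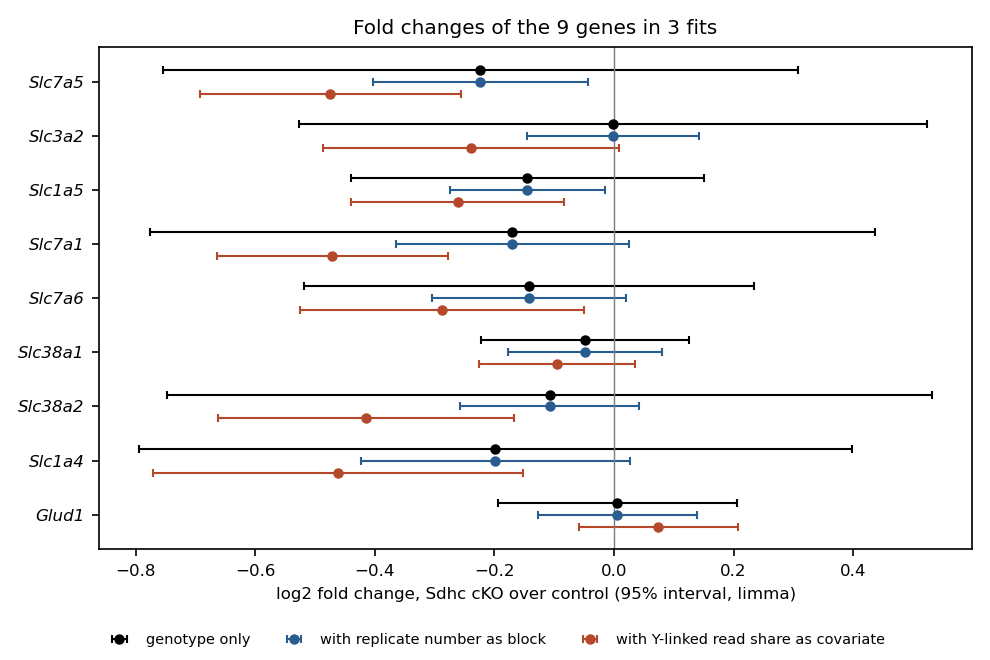
Log2 fold change of the 9 genes, Sdhc cKO over control, with 95% intervals from limma on genotype alone, with the replicate number as a block and with the share of Y-linked reads as a covariate. The intervals on genotype alone span 0 for every gene, and with the covariate those of Slc7a5 (-0.69 to -0.26) and Slc7a1 (-0.66 to -0.28) lie furthest below it.

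Most of the transporter genes varied more over the 6 libraries than between the groups. Library 1 was the lowest of its own group in both groups for all 8 transporter genes, and this held for 26.8% of all tested genes; it was the highest in both groups for Glud1 and for 25.3% of all genes. In values centred on each gene's mean over 6 libraries, cKO 1 stood at -0.63 for Slc7a5, -0.69 for Slc7a1, -0.63 for Slc38a2, -0.63 for Slc1a4 and -0.44 for Slc3a2 on the log2 scale. It stood at -0.12 for Slc38a1. The SD of log2 values over the 6 libraries was 0.36 for Slc7a5, 0.33 for Slc3a2, 0.40 for Slc7a1, 0.41 for Slc38a2 and 0.39 for Slc1a4. The median SD was 0.13 among the 8296 tested genes that averaged 200 normalised counts or more, and Slc38a1 (0.07) and Glud1 (0.09) were below it.

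Genes with the most similar profile were ranked by the root mean square difference of centred log2 values over the 6 libraries. Nearest to Slc7a5 among all tested genes was Psat1, a serine synthesis enzyme that uses glutamate as amino donor, at 0.0147. After it came Qtrtd1, Fam81a, the thymidylate synthase gene Tyms, and Lrpprc, at 0.0397 to 0.0458, where Fam81a had at most 13.7 normalised counts. Psat1 had 3696, 6489 and 5851 normalised counts in cKO 1, 2 and 3, against 4915, 6611 and 6955 in control 1, 2 and 3. Of the set itself Slc1a4 was nearest to Slc7a5, at rank 13 (0.0544), followed by Slc7a1 at rank 81, while its partner Slc3a2 was at rank 308 (0.127). Nearest to Slc38a2 were Gclc, of glutathione synthesis, Mthfd1l, of mitochondrial folate metabolism, and then Sap30, Polr3b and Trim65, at 0.0302 to 0.0478. Slc1a4, Slc7a1, Slc3a2 and Slc7a5 followed at ranks 29, 30, 50 and 71. All these profiles rest on 6 libraries.

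**Figure D4:**
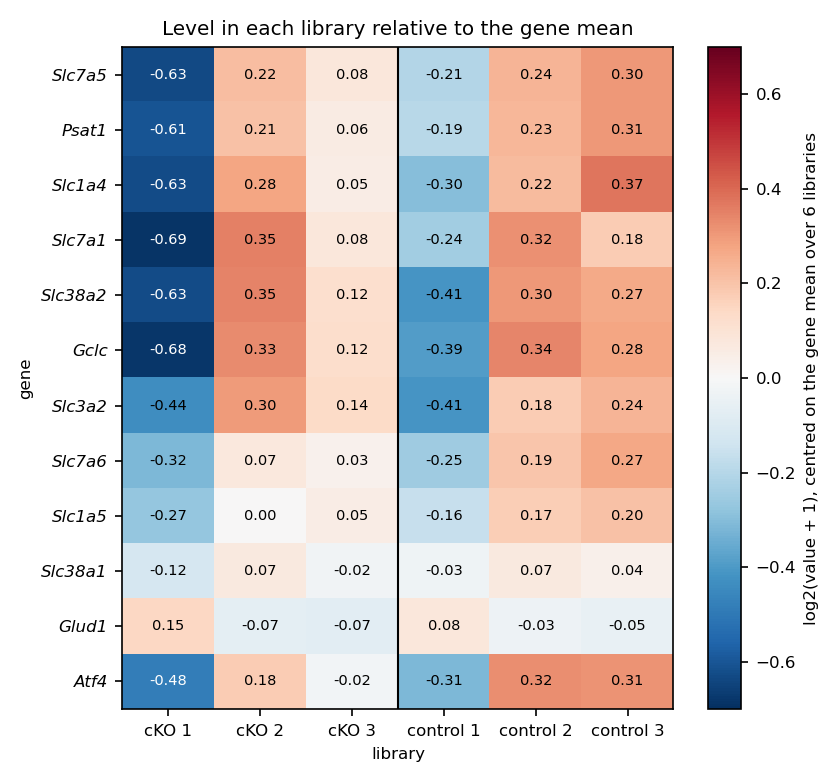
Log2(value + 1) in each library centred on the gene's mean over 6 libraries, Sdhc cKO left and control right of the line, for the 9 genes, the nearest profiles Psat1 and Gclc, and Atf4; colour and printed number give the same value. Library 1 of both groups is low for the transporters, Psat1, Gclc and Atf4, weakly so for Slc38a1, and high for Glud1.

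The sequence just before the transcription starts of the 9 genes was read for 3 motifs. RefSeq windows of 250 bases before to 50 after the start (GRCm38.p6) were found for 6 of the 9: Slc3a2, Slc7a1, Slc7a6, Slc38a2, Slc1a4 and Glud1. Slc7a5, Slc1a5 and Slc38a1 had none in the table. The Slc3a2 window lies within the gene span given above, so its start is not the outermost annotated one. The motifs, on both strands, were TGATGNAA, a core of the element bound by ATF4 with C/EBP proteins, the E-box CACGTG, which MYC can bind, and the GC box GGGCGG. The stretches below are those of the 4 transporter genes that were lowest in library 1 by the widest margins, from 150 bases before the start and, for Slc1a4, up to the end of the motif. Capitals mark TGATGNAA or GGGCGG as read on either strand.
Slc1a4, chr11:20332710-20332863, minus strand: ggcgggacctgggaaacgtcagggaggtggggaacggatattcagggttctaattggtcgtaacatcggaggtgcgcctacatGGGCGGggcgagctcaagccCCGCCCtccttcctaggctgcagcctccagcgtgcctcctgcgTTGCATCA
Slc38a2, chr15:96699729-96699878, minus strand: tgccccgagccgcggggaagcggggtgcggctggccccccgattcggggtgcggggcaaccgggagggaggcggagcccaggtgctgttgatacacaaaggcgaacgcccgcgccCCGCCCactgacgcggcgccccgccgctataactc
Slc3a2, chr19:8713898-8714047, minus strand: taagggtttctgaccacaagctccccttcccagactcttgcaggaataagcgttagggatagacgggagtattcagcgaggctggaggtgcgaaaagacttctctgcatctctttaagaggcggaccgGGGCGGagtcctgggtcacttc
Slc7a1, chr5:148399905-148400054, minus strand: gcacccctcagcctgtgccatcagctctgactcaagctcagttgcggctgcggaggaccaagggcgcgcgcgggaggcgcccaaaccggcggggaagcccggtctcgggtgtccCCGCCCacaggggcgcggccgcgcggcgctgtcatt
TGATGNAA was present in 1 of 8 windows of these genes, that of Slc1a4, where it reads TTGCATCA on the sense strand and spans the start from base -4. It was present in 3.97% of all 32851 promoter windows. CACGTG was in none of the 8 windows and in 7.15% of all. GGGCGG was in 7 of 8 windows, those of all 6 genes, and in 35.7% of all; it was also present for Glud1, whose profile ran the other way. These matches describe the letters in the windows only.

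Related genes were read as lists. Of the 12 other plasma membrane amino acid transporters tested, 9 had negative log2 fold changes, against 54.1% of all genes. Their median was -0.26, and 0 passed the test. The most abundant by mean normalised count, not per kilobase, were Slc43a2 and Slc6a6. Slc43a2 encodes the LAT4 carrier of branched-chain amino acids and phenylalanine, and Slc6a6 the taurine carrier. The log2 fold change was 0.14 for Slc43a2 (SE 0.08) and -0.18 for Slc6a6 (SE 0.14), each with an adjusted p of 0.978 in limma. Without overlap between the groups were 3 of the 12, against 10.2% of all tested genes. Slc7a8 (log2 fold change -0.59, SE 0.31) and Slc7a11 had all cKO libraries below all controls, and Slc38a6 had all above (0.22, SE 0.16). Slc7a11, the light chain of the cystine-glutamate exchanger that also pairs with 4F2hc, had 72.3, 65.1 and 38.7 normalised counts in cKO 1, 2 and 3, against 75.9, 83.3 and 82.5 in control 1, 2 and 3. Its log2 fold change of -0.50 (SE 0.25, 95% interval -1.08 to 0.08) did not pass (adjusted p = 0.978 in limma), and the gene was picked after its values were seen. With the Y-linked covariate, 4 of the 12 were called lower with limma, where 4.86% of all genes were, and the same 4 with edgeR: Slc6a6, Slc6a9, Slc7a3 and Slc43a3.

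Of 24 glutamine and glutamate enzymes, 20 had negative log2 fold changes, against 54.1% of all genes, with a median of -0.14, and 0 passed. Psat1 (log2 fold change -0.23, SE 0.22) and Aldh18a1, of proline synthesis (-0.15, SE 0.14), were the most abundant, with a limma adjusted p of 0.978 each. With the covariate, 9 of the 24 were called lower with limma, against 4.86% of all genes: Got2, Gpt2, Psat1, Aldh18a1, Asns, Ppat, Cad, Pfas and Gclc. With edgeR 8 of these were called, against 3.35% of all genes, and Aldh18a1 was not (edgeR adjusted p = 0.0523). Of the 24, 14 were lowest in library 1 of both groups, against 26.8% of all tested genes. The covariate was near 0 in those libraries and is partly tied to genotype, which limits its calls in every list. Of 12 enzymes of branched-chain amino acids and arginine, 11 had negative log2 fold changes, against 54.1% of all genes. Their median was -0.08, and 0 passed the test. Odc1, which starts polyamine synthesis from ornithine, had no overlap between the groups, as had Bckdk (-0.09, SE 0.07), also lower on average. All cKO libraries were below all controls at 5.64% of all tested genes. The means of Odc1 were 4599.9 ± 93.7 in cKO libraries and 5288 ± 75.2 in controls (SD, n = 3 each), and the log2 fold change was -0.20 (SE 0.06, adjusted p = 0.978 in limma). The arginine synthesis gene Ass1 had -0.08 (SE 0.09, adjusted p = 0.978 in limma). With the covariate Bcat1 alone of this list of 12 was called lower, against 4.86% of all genes with limma and 3.35% with edgeR.

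The 10 lysosomal and endosomal amino acid transporters had 6 negative log2 fold changes, against 54.1% of all genes, and a median of -0.02. Of them 0 passed with or without the covariate. For the most abundant of them, the log2 fold change was -0.02 for Slc38a10 (SE 0.08) and -0.13 for Slc36a4 (SE 0.10). Among 30 genes of amino acid sensing by mTORC1, 18 were negative, against 54.1% of all genes, the median was -0.02 and 0 passed. Of the most abundant, Sesn3 stood at 0.02 (SE 0.07) and Fnip1 at 0.10 (SE 0.06). The groups did not overlap at Fnip1, above in cKO libraries, nor at Rraga and Lamtor5, below, where 10.2% of all tested genes had no overlap. With the covariate 1 of the 30, Sesn2, of a leucine sensor, was called lower, against 4.86% of all genes with limma and 3.35% with edgeR. Of 13 regulators, 8 were negative, against 54.1% of all genes, with a median of -0.03 and 0 past the test. The groups did not overlap at 4 of the 13, against 10.2% of all tested genes. Hif1a, the hypoxia factor gene, was below (-0.20, SE 0.07). Eif2ak3 (0.16, SE 0.08), Ddit3 (0.30, SE 0.10) and Txnip (0.36, SE 0.16), chosen for not overlapping, were above in cKO libraries. Atf4 had 2467, 3905 and 3403 normalised counts in cKO 1, 2 and 3, against 2775, 4320.4 and 4286 in control 1, 2 and 3. Like the transporters it was lowest in library 1 of both groups. Its log2 fold change was -0.22 (SE 0.22, adjusted p = 0.978 in limma), and with the covariate -0.44 (SE 0.11, adjusted p = 0.0467 in limma; edgeR adjusted p = 0.0551). Leaving out cKO 1 put it at -0.03 and leaving out control 1 at -0.43, on genotype alone. With the covariate Myc was also called lower and Txnip, which curbs glucose uptake, higher. In either direction, limma with it called 3 of the 13, against 6.5% of all genes, and edgeR 2 of the 13, against 5.28%.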

How the data were processed

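RNA from sorted mouse Th1 cells was made into Illumina TruSeq libraries, per the labels' protocols. The submitters' processing notes list mm10 as build and STAR, HTSeq and DESeq2 as tools. The sources used here give no versions, annotation or strand setting. The values deposited by the authors are a signal for each gene in each library. In each of the 6 libraries 100% of values were whole multiples of 1 step, to within 0.01, so they are reads divided by a size factor (0.9091 to 1.1064), and whole reads were recovered.

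Genotype was tested, as the only term, with limma-trend on log2(value + 1), using limma 3.58.1 under R 4.3.3. Genes had to exceed a value of 10 in 3 or more libraries. P-values were 2-sided, Benjamini-Hochberg adjusted over all genes tested. The added 1 makes the fold changes of low genes too small. The recovered reads were also tested with edgeR 4.0.16 and DESeq2 1.42.0. Exact permutation tests used scipy 1.17.1. The limma-trend and edgeR fits on genotype alone were also run on simulated data, while the DESeq2, block and covariate fits were not. Exon lengths came from GENCODE M21, where 17568 symbols matched 1 gene.

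The genes, lists, settings and the Y-linked covariate were chosen with earlier results of these data known. Named were all 9 genes, Sdhc, the called or else the 2 most abundant genes of each list, and the 5 profiles nearest to Slc7a5 and Slc38a2. Abundance within the lists was by mean normalised count, not per kilobase. Slc7a11 and other genes described as called with the covariate or not overlapping, with Ifng and Tbx21, were added after their values were seen. Replicate numbers are shared by the groups, but the labels do not say that they pair libraries. Centred on their group means, libraries with the same number correlated across genes at 0.579, 0.458 and 0.188, each over 0.1, so a block on the number was fitted as an alternative; cKO 3 correlated better with control 2 (0.272).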

Additional observations from a re-analysis of the deposited data

How the results depend on the processing

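There were 3 libraries a group, and library 1 of both groups lay far from the others at most of the 9 genes. The differences seen here did not pass on genotype alone, and the reason was not tested. On genotype alone, 0 of the 9 genes passed under any scaling, filter, pseudocount or tool tried, with array weights, with the replicate block or with a library left out; 2 of 9 passed with the Y-linked covariate, in limma and in edgeR. Genes called over the whole table numbered 2 with DESeq2, 1 with array weights, 1 with the replicate block, 826 with the covariate in limma, 670 with it in edgeR, and 0 to 1 with a library left out. The block left the fold changes as they were, narrowed the median SE of the 9 genes to 0.07, against 0.23 without it, and changed no other call (limma adjusted p = 0.330 for Slc7a5, 0.358 for Slc1a5).

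The median log2 fold change of the 9 genes ranged from -0.30 without control 1 to 0.04 without cKO 1. Leaving out libraries moved Slc7a5 from -0.39 to 0.036, Slc3a2 from -0.21 to 0.22, Slc7a1 from -0.39 to 0.13, Slc38a2 from -0.34 to 0.18, Slc1a4 from -0.40 to 0.065 and Glud1 from -0.066 to 0.047; the highest value of the first 5 came without cKO 1. Of related genes, Psat1 ranged from -0.39 to 0.017, Ass1 from -0.14 to 0.018, Sesn3 from -0.014 to 0.057 and Slc38a10 from -0.090 to 0.014. Without library 1 of both groups, Slc3a2 was 0.011, Glud1 -0.025 and Sesn3 -0.014. Slc3a2 turned to 0.013 with DESeq2, 0.0048 with TMM factors, 0.018 with edgeR, 0.0068 with library totals, 0.014 with limma-voom and 0.033 with upper-quartile factors. Glud1 turned to -0.017 with array weights, and Slc38a10 to 0.062 and 0.038 with the covariate in edgeR and limma and to 0.011 with upper-quartile factors. The causes were not tested.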
